A study of Mus musculus with 10 samples.

Results

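The BCL2 family genes of survival and death described here are Bcl2, Bcl2l1, Mcl1, Bax, Bak1, Bid, Bbc3, Bcl2l11, Bik and Bmf, 10 of the 51707 genes listed in the libraries. They were chosen by name as 3 survival, 2 effector and 5 BH3-only genes, and all 10 passed the expression filter. The family controls whether mitochondria release the factors that start the intrinsic pathway of cell death. The survival members BCL2, BCL-XL (gene Bcl2l1) and MCL1 hold the effectors BAX and BAK (gene Bak1) in check. The BH3-only members BID, PUMA (gene Bbc3), BIM (gene Bcl2l11), BIK and BMF relay stress signals by binding the survival proteins or by activating the effectors. In pancreatic carcinoma the family is known mainly for the dependence of the tumour cells on BCL-XL and MCL1.

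The samples were 10 RNA sequencing libraries of epithelial cells sorted by flow cytometry from pancreatic ductal adenocarcinoma. The tumours grew in the pancreas of mice from transplanted T6-LOH organoids of the KPC model, a genetic mouse model of pancreatic cancer, together with pancreatic stellate cells (PSCs), the fibroblast precursors of the pancreas. In 5 libraries the PSCs were the Egfr knockout clone PSC4 EGFR KO B4 (Egfr KO PSC), and in the other 5 the control line PSC4 ROSA (egfr), read as the Egfr WT PSC of the series title. The organoid source was the same in both groups, the title names NSG hosts, which lack lymphocytes, and every library has the strain label C57BL/6J. Only 1 knockout clone was used, so Egfr loss and clone cannot be told apart, and no label ties a library to a mouse of its own, so the tests here see the spread among libraries, which may be partly technical.

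All 10 proteins share a BH3 helix, whose core is a leucine, 3 variable residues, a glycine or alanine, and an aspartate. A search of the coding sequence of the most abundant protein-coding transcript of each gene found this core exactly once in each of the 10, against at least once in 12.3% of 6898 genes with a coding sequence of 450 to 993 bases. The share over genes was taken from the longest coding sequence of each gene. The 10 are known BH3 proteins, so a match in each was given in advance, and the comparison is no test. A match is a description of the letters and not evidence of a binding site. The stretches below are shown because the BH3 core is what the members have in common, and because some transcripts of Bcl2l11 lack it. They are coding DNA from the GENCODE M21 transcripts, 27 bases each, with GRCm38 positions, and the capitals mark the leucine codon and the codons of the glycine or alanine and the aspartate.
Bcl2 (chr1:106712575-106712601, minus strand): CTCcgccgggctGGGGATgacttctct
Bcl2l1 (chr2:152829697-152829723, minus strand): CTGagagaggcaGGCGATgagtttgaa
Mcl1 (chr3:95659436-95659462, plus strand): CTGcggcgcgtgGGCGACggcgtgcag
Bax (chr7:45465997-45466023, minus strand): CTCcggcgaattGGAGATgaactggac
Bak1 (chr17:27022531-27022557, minus strand): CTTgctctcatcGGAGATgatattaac
Bid (chr6:120897289-120897315, minus strand): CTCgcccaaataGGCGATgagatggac
Bbc3 (chr7:16313773-16313799, plus strand): CTGcggcggatgGCGGACgacctcaac
Bcl2l11 (chr2:128147150-128147176, plus strand): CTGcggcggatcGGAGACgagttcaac
Bik (chr15:83543084-83543110, plus strand): CTGgcctgcatcGGCGATgagatggac
Bmf (chr2:118545100-118545126, minus strand): CTTcagtgtattGCAGACcagttccat
Each stretch lies within 1 exon. Bbc3 and Bmf carry an alanine codon where the other 8 genes carry a glycine codon.

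The libraries held 39.5 to 53.8 M estimated counts in genes (M, the prefix mega), with means of 46.6 ± 5.69 M with Egfr KO PSCs and 46.3 ± 5.07 M with Egfr WT PSCs (SD, n = 5 each; exact permutation p = 0.944, two-sided). Epcam and Krt19, markers of epithelium, lay at 117 CPM or more and 3255 CPM or more in every library. The lymphocyte markers summed to 0.234 to 0.555 CPM with Egfr KO PSCs and 0.151 to 0.508 CPM with Egfr WT PSCs, with Cd3e, Cd3d, Ms4a1 and Ncr1 among those at 0 in at least 1 library. CPM is a count scaled to the normalised total of its library, and TPM also corrects for transcript length. Egfr was at 63.4 ± 9.12 CPM with Egfr KO PSCs and 58.5 ± 16.2 CPM with Egfr WT PSCs (SD, n = 5 each); the deletion was made in the co-transplanted PSCs, so the level in tumour epithelium is no check of the labels.

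Levels of different genes were compared in TPM. Bcl2l1 was the most abundant of the 10, with a mean of 221 TPM over all libraries and a range of 178 to 314 TPM. The effector Bax followed at 139.8 TPM and the effector Bak1 at 68.7 TPM. Bcl2l1 was above Bax in 9 of 10 libraries, the exception being Egfr KO PSC replicate 3, and Bax was above Bak1 in 10 of 10 with ranges that did not overlap. The level of Bak1 sums all its transcripts. Bak1-202, which encodes the full protein, lay at 5.91 ± 1.48 TPM with Egfr KO PSCs and 5.66 ± 1.59 TPM with Egfr WT PSCs (SD, n = 5 each).

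A middle tier held the BH3-only genes Bcl2l11 at 43.3 TPM and Bid at 37.8 TPM and the survival gene Mcl1 at 36.7 TPM. Bak1 was above Bcl2l11 in 10 of 10 libraries and Bcl2l11 above Bid in 8 of 10, while Bid was above Mcl1 in 5 of 10, so Bid and Mcl1 were not separated. Mcl1 was 4.53 times the next gene in mean TPM. The lowest tier held Bmf at 8.10 TPM, Bcl2 at 7.62 TPM, Bbc3 at 5.44 TPM and Bik at 4.82 TPM. Within it, Bcl2 was above Bbc3 in 10 of 10 libraries, but Bmf was above Bcl2 in only 5 of 10 and Bbc3 above Bik in only 6 of 10.

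**Figure D1:**
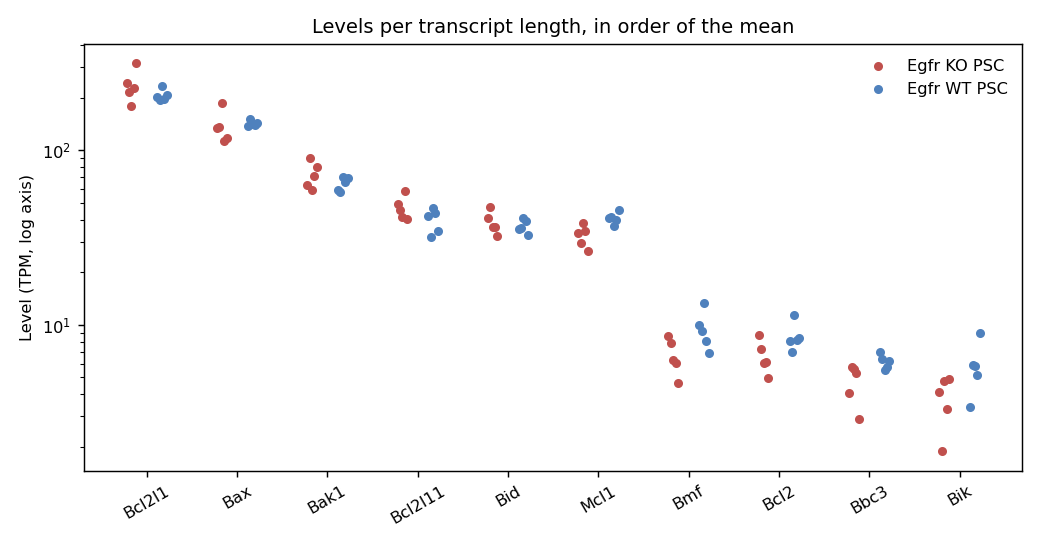
Level of each gene in each library (TPM, log axis; 1 point per library, Egfr KO PSC left of Egfr WT PSC), in order of the mean over all libraries. Bcl2l1 leads at 178 to 314 TPM, and the lowest 4 genes lie below the range of Mcl1.

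The single comparison of the design asks whether tumour epithelium that grew beside Egfr KO PSCs differs from epithelium that grew beside Egfr WT PSCs. None of the 10 genes passed the test in either direction. The 2 with the lowest p were the survival gene Mcl1 and the BH3-only gene Bmf, both lower with Egfr KO PSCs, at fitted levels of 0.799 and 0.733 times those with Egfr WT PSCs. In all, 6 of 10 had a lower and 4 a higher fitted level with Egfr KO PSCs. Called means an adjusted p under 0.05 in edgeR's quasi-likelihood test, adjusted over all 17495 genes tested by the Benjamini-Hochberg method, and 0 of the 10 were called, where the share over all genes was 0%. At an unadjusted edgeR p under 0.05 there were 2 of 10, against 8.15% of all genes tested; both were lower, against 4.6% of all genes, and 0 were higher, against 3.55%. The median log2 fold change was -0.18 over the 10 genes and 0.00041 over all genes tested. DESeq2 and limma voom called none of the 10 either, where they called 0.726% and 0.0171% of all genes. In 0 of the 10 genes did the groups separate without overlap, which 1.52% of all genes did.

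**Figure D2:**
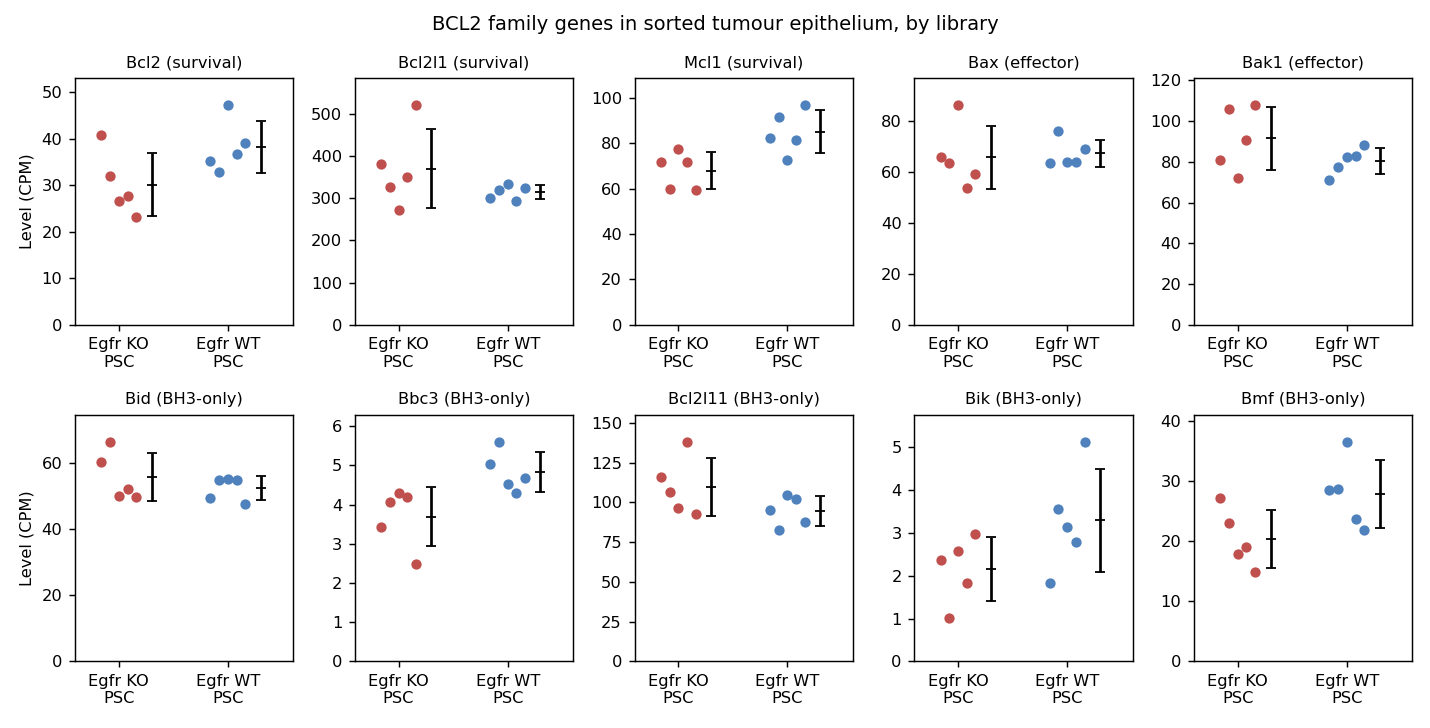
Level of each of the 10 genes in each library (CPM, axes from 0; points are libraries, bars the mean ± SD, n = 5 per group). Egfr KO PSC libraries stand left and Egfr WT PSC libraries right, and the groups overlap in every panel.

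Among the survival genes, Mcl1, whose short-lived protein sequesters BIM and BAK, lay at 71.7, 59.6, 77.4, 71.5 and 59.3 CPM in Egfr KO PSC replicates 1 to 5. It lay at 82.5, 91.7, 72.8, 81.3 and 96.9 CPM in Egfr WT PSC replicates 1 to 5. All but 1 library of each group were on their own side, the exceptions being Egfr KO PSC replicate 3 and Egfr WT PSC replicate 3. The means were 67.9 ± 8.06 CPM with Egfr KO PSCs and 85.0 ± 9.43 CPM with Egfr WT PSCs (SD, n = 5 each). The fitted log2 fold change was -0.32, with a 95% interval of -0.57 to -0.08, and edgeR gave an adjusted p of 0.495. In bulk libraries, fewer cells that express a gene and less of its RNA per cell cannot be told apart.

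Bcl2, the founding survival gene of the family, lay at 40.9, 32.0, 26.7, 27.8 and 23.2 CPM with Egfr KO PSCs. With Egfr WT PSCs it lay at 35.2, 32.9, 47.3, 36.7 and 39.1 CPM. Egfr KO PSC replicate 1 stood inside the Egfr WT PSC range, and the other 4 lay below it. The means were 30.1 ± 6.80 CPM with Egfr KO PSCs and 38.2 ± 5.56 CPM with Egfr WT PSCs, a fitted log2 difference of -0.34 (SE 0.16) with an edgeR adjusted p of 0.62.

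Bcl2l1 lay at 382, 326, 271, 349.8 and 522 CPM with Egfr KO PSCs, and at 301, 319, 335, 293 and 326 CPM with Egfr WT PSCs. Egfr KO PSC replicate 3 was the lowest and replicate 5 the highest of all 10 libraries, so the Egfr KO PSC libraries enclosed the others. The means were 370.1 ± 93.9 CPM with Egfr KO PSCs and 315 ± 17.1 CPM with Egfr WT PSCs (SD, n = 5 each). The fitted log2 fold change was 0.23, with a 95% interval of -0.10 to 0.56, and edgeR gave an adjusted p of 0.717. Without Egfr KO PSC replicate 5 the log2 fold change of Bcl2l1 was 0.081.

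The effector Bax, which forms pores in the outer mitochondrial membrane, lay at 65.7, 63.5, 86.2, 53.7 and 59.3 CPM with Egfr KO PSCs. It was at 63.4, 76.0, 63.7, 63.8 and 68.8 CPM with Egfr WT PSCs, within the Egfr KO PSC range. Its log2 fold change was -0.03 (SE 0.13, edgeR adjusted p = 0.965), and its sign turned in 5 of 19 alternative fits. The second effector, Bak1, lay at 80.9, 106, 71.9, 90.8 and 108 CPM with Egfr KO PSCs and at 71.0, 77.4, 82.3, 83.1 and 88.4 CPM with Egfr WT PSCs. Of the Egfr KO PSC libraries, 3 lay above the Egfr WT PSC range. The log2 fold change of Bak1 was 0.19 (SE 0.12, edgeR adjusted p = 0.723). Without Egfr KO PSC replicate 5 it was 0.12. The unadjusted 95% confidence intervals of this edgeR fit were -0.31 to 0.25 for Bax and -0.08 to 0.46 for Bak1. The interval of Bak1 is for the sum of its transcripts. For Bak1-202 alone, tested by transcript, the log2 fold change was 0.085 (SE 0.23).

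Among the BH3-only genes, Bmf, whose product is known to respond to loss of cell anchorage, lay at 27.2, 23.1, 17.8, 19.0 and 14.9 CPM with Egfr KO PSCs. It was at 28.6, 28.6, 36.6, 23.6 and 21.9 CPM with Egfr WT PSCs. Of the Egfr KO PSC libraries 3 lay below all Egfr WT PSC libraries, and of the Egfr WT PSC libraries 3 lay above all Egfr KO PSC libraries. The means were 20.4 ± 4.81 CPM with Egfr KO PSCs and 27.8 ± 5.71 CPM with Egfr WT PSCs (SD, n = 5 each). The fitted log2 fold change was -0.45, with a 95% interval of -0.85 to -0.05, and edgeR gave an adjusted p of 0.564.

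Bcl2l11, which encodes BIM and is known to be restrained by ERK signalling, lay at 116, 106, 96.4, 138 and 92.8 CPM with Egfr KO PSCs. It was at 95.2, 82.9, 105, 102 and 87.6 CPM with Egfr WT PSCs. Of the Egfr KO PSC libraries 3 lay above the Egfr WT PSC range, and the other 2 lay inside it. The means were 109.9 ± 18.2 CPM with Egfr KO PSCs and 94.5 ± 9.28 CPM with Egfr WT PSCs, a fitted log2 difference of 0.22 (SE 0.12) with an edgeR adjusted p of 0.675. Without Egfr KO PSC replicate 4 the difference was 0.12.

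Bbc3, which encodes PUMA and is a known p53 target, was low in every library, with 106 to 297 estimated counts. It lay at 3.43, 4.05, 4.30, 4.19 and 2.48 CPM with Egfr KO PSCs and at 5.03, 5.61, 4.52, 4.29 and 4.69 CPM with Egfr WT PSCs. The groups overlapped only through Egfr KO PSC replicate 3 at 4.30 CPM and Egfr WT PSC replicate 4 at 4.29 CPM. The log2 fold change of Bbc3 was -0.39 (SE 0.19, edgeR adjusted p = 0.646). Bik, whose product acts at the endoplasmic reticulum, was the least abundant of the 10, with 53 to 222 estimated counts. It lay at 2.36, 1.02, 2.57, 1.83 and 2.97 CPM with Egfr KO PSCs and at 1.84, 3.55, 3.13, 2.79 and 5.13 CPM with Egfr WT PSCs. Its log2 fold change was -0.61, with the widest interval of the 10 (95% confidence interval -1.32 to 0.09, edgeR adjusted p = 0.663). Without Egfr WT PSC replicate 5, the highest library for Bik, it was -0.40.

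Bid, which links death receptors to mitochondria once caspase-8 cleaves its product, lay at 60.2, 66.5, 50.1, 52.2 and 49.6 CPM with Egfr KO PSCs and at 49.6, 55.0, 55.2, 54.7 and 47.7 CPM with Egfr WT PSCs. Egfr KO PSC replicates 1 and 2 were the highest of all 10 libraries, and the others overlapped. The log2 fold change was 0.09 (95% confidence interval -0.15 to 0.32, edgeR adjusted p = 0.857). It was 0.018 without Egfr KO PSC replicate 2 and 0.055 without Egfr WT PSC replicate 5.

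**Figure D3:**
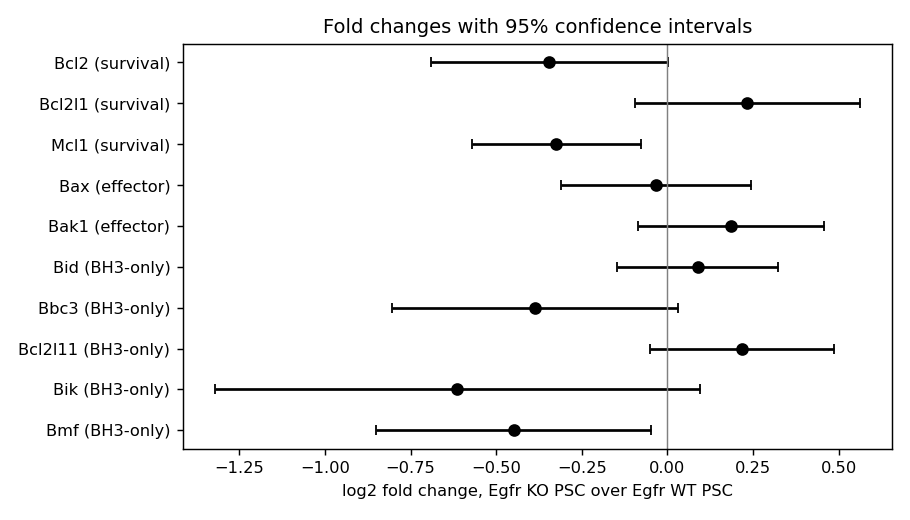
Fitted log2 fold change of each gene, Egfr KO PSC over Egfr WT PSC, with its 95% confidence interval (edgeR, n = 5 per group). The intervals of Mcl1 and Bmf lie below 0 before adjustment, and the other 8 include 0.

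The spread between libraries was larger with Egfr KO PSCs for 9 of the 10 genes, Bik being the exception. The median coefficient of variation in CPM over the 10 genes was 19.7% with Egfr KO PSCs and 10.2% with Egfr WT PSCs. Over all genes tested it was 24.0% with Egfr KO PSCs and 20.4% with Egfr WT PSCs, and 62.2% of genes had the larger value with Egfr KO PSCs. Egfr KO PSC replicate 5 held the lowest level of all 10 libraries for Bcl2, Mcl1, Bbc3 and Bmf and the highest for Bcl2l1 and Bak1. Bcl2 and Bmf shared the same order of the 5 Egfr KO PSC libraries, with replicate 5 lowest and replicate 1 highest. Both peaked in Egfr WT PSC replicate 3, but the order of the other Egfr WT PSC libraries differed. The data files carry a code with the number 8, 9 or 10, which no source used here explains. Within these numbers the difference in mean log2 CPM, Egfr KO PSC minus Egfr WT PSC, was -0.44, -0.23 and -0.32 for Mcl1, and -0.82, -0.57 and -0.05 for Bmf, from 1 or 2 libraries per group. For Bcl2 it was -0.40, -0.63 and 0.010. The library patterns of this paragraph were described after the values were seen and have no test.

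Summed by role, the survival genes reached 274 ± 45.8 TPM with Egfr KO PSCs and 256 ± 15.8 TPM with Egfr WT PSCs (SD, n = 5 each). The effectors summed to 210.3 ± 25.4 TPM with Egfr KO PSCs and 207 ± 6.35 TPM with Egfr WT PSCs, and the BH3-only genes to 101 ± 10.7 TPM with Egfr KO PSCs and 98.1 ± 9.73 TPM with Egfr WT PSCs. Each of the 3 sums overlapped between the groups. The effector sum, and the ratio of Bax to Bak1 below, use all transcripts of Bak1. Most Bak1 counts were assigned to transcripts annotated as targets of nonsense-mediated decay. Bcl2l1 supplied 80.1% to 90.9% of the survival TPM with Egfr KO PSCs and 79.2% to 82.9% with Egfr WT PSCs. The ratio of Bcl2l1 to Bcl2 was 27.7, 29.6, 29.4, 37.0 and 63.5 with Egfr KO PSCs, and 24.9, 27.5, 20.6, 24.1 and 24.4 with Egfr WT PSCs. In TPM the lowest Egfr KO PSC ratio lay just above the highest Egfr WT PSC ratio. In CPM the ratios of the groups overlapped, with Egfr KO PSC replicate 1 below Egfr WT PSC replicate 2. Bcl2l1 and Bcl2 lay at 382 and 40.9 CPM in the former and at 319 and 32.9 CPM in the latter. The ratio was computed after the levels were seen and is given without a test. The share of all gene pairs whose ratio separates the groups was not computed. The other ratios of gene pairs computed overlapped between the groups: Bcl2l1 to Mcl1 was 4.66 to 11.8 with Egfr KO PSCs and 4.51 to 6.33 with Egfr WT PSCs, and Bax to Bak1 was 1.47 to 3.16 with Egfr KO PSCs and 1.996 to 2.60 with Egfr WT PSCs. The ratio of survival to BH3-only TPM was 2.32 to 4.07 with Egfr KO PSCs and 2.40 to 2.91 with Egfr WT PSCs.

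The libraries were quantified by transcript, so the splice forms could be compared. The 10 genes had 52 transcripts with a name in the annotation used, of which 28 passed the filter. The transcript test called 0 of these 28 and 0% of the 46220 transcripts tested (edgeR, lowest adjusted p 0.972 among the 28). At an unadjusted edgeR p under 0.05 there were 6 of 28, 3 higher and 3 lower with Egfr KO PSCs, against 5.14% of all transcripts. The 3 lower were Mcl1-201, Bmf-201 and Bcl2-201, with 100%, 98.4% and 93.5% of their genes' counts, so they largely repeat the gene values. The 3 higher were Bcl2l11-202, Bcl2l11-208 and Bcl2l1-209, the last a non-coding form with 0.078% of the Bcl2l1 counts. The division of reads among overlapping transcripts is an estimate, and its error is not in this test.

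The counts of Bcl2l1 went mainly to 2 transcripts with the same coding sequence of 699 bases, the long BCL-XL form, which differ in their first exon. Bcl2l1-202 held 65.8 ± 2.80% with Egfr KO PSCs and 65.2 ± 3.07% with Egfr WT PSCs. Bcl2l1-201 held 29.6 ± 2.62% with Egfr KO PSCs and 30.3 ± 3.34% with Egfr WT PSCs. For Mcl1, the transcript of the long survival form, Mcl1-201, held 100% in every library. Bcl2-201 held 91.4% to 94.9% of the Bcl2 counts, and the single-exon Bcl2-202, whose coding sequence is shorter, held the rest. Bax-201 held 93.2 ± 1.72% of the Bax counts with Egfr KO PSCs and 93.6 ± 0.386% with Egfr WT PSCs. Bik-201 held 96.5 ± 3.50% of the Bik counts with Egfr KO PSCs and 88.3 ± 5.55% with Egfr WT PSCs, and Bik-204 held 3.51 ± 3.50% with Egfr KO PSCs and 10.1 ± 3.96% with Egfr WT PSCs, at the low counts of this gene. Bid, Bbc3 and Bmf each had 1 dominant transcript.

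Bcl2l11 was spread over more forms. The 3 classical BIM proteins differ in length, with coding sequences of 196, 140 and 110 codons for the extra-long, long and short forms. The extra-long form, Bcl2l11-205, held 53.6 ± 5.25% of the counts with Egfr KO PSCs and 57.7 ± 3.29% with Egfr WT PSCs. The long form, Bcl2l11-203, held 12.8 ± 1.70% with Egfr KO PSCs and 12.8 ± 2.89% with Egfr WT PSCs. The short form, Bcl2l11-201, held 21.6 ± 2.20% with Egfr KO PSCs and 20.7 ± 3.98% with Egfr WT PSCs.

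All 3 of these hold the BH3 stretch of Bcl2l11 printed above, which Bcl2l11-202, with a coding sequence of 91 codons, and the non-coding Bcl2l11-208 do not. Bcl2l11-202 held 8.22 ± 3.38% of the counts with Egfr KO PSCs and 6.03 ± 0.913% with Egfr WT PSCs. It lay at 5.39, 4.64, 4.89, 4.83 and 7.81 TPM with Egfr KO PSCs and at 3.93, 3.61, 4.60, 3.15 and 3.20 TPM with Egfr WT PSCs. Every Egfr KO PSC library was above every Egfr WT PSC library, though the closest pair, 4.64 and 4.60 TPM, nearly touched. It was the 1 transcript of the 28 whose groups did not overlap in TPM, as 1.02% of all transcripts tested did not. The log2 fold change of Bcl2l11-202 was 0.59 (SE 0.20, edgeR unadjusted p = 0.0122, adjusted p = 0.972 over all transcripts). Bcl2l11-208 had a log2 fold change of 0.62 (edgeR unadjusted p = 0.0223, adjusted p = 0.972). The share of Bcl2l11 counts in transcripts with the BH3 stretch was 80.0% to 91.9% with Egfr KO PSCs and 89.9% to 92.9% with Egfr WT PSCs. The lowest of these, 80.0%, was Egfr KO PSC replicate 5, and the other 4 Egfr KO PSC libraries lay at 88.7% or more.

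Bak1 differed from the other 9 genes in that most of its counts went to transcripts annotated as targets of nonsense-mediated decay (NMD). These held 86.9 ± 2.04% with Egfr KO PSCs and 86.8 ± 2.51% with Egfr WT PSCs, and at least 84.1% in every library. Bak1-204 held 51.5 ± 3.81% with Egfr KO PSCs and 53.4 ± 6.48% with Egfr WT PSCs, and Bak1-201 held 35.4 ± 3.97% with Egfr KO PSCs and 33.4 ± 6.51% with Egfr WT PSCs. Bak1-202, which encodes the full BAK protein in 209 codons, held 10.3 ± 2.58% with Egfr KO PSCs and 10.8 ± 2.58% with Egfr WT PSCs. Bak1-201 has a 20-base exon that Bak1-202 lacks, at chr17:27021663-27021682 on the minus strand of GRCm38, and its coding sequence ends at 151 codons. The exon is shown because it is one of the short stretches by which Bak1-201 and Bak1-204 differ, with the exon in capitals and 5 bases of its neighbours on each side.
Bak1-201 exon: tccagGCCAGCAGCAACATGCACAGcctat
Bak1-204 lacks this exon, but the third of its exons starts 5 bases later than that of Bak1-202, and its coding sequence ends at 79 codons. The annotated first exon of Bak1-202 is 431 bases longer than that of Bak1-201 and 422 bases longer than that of Bak1-204. Counts that follow the splice forms and counts that follow the start of the first exon cannot be told apart in these files, so the NMD share is the assignment made in the quantification, not a measured share of decay targets.

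**Figure D4:**
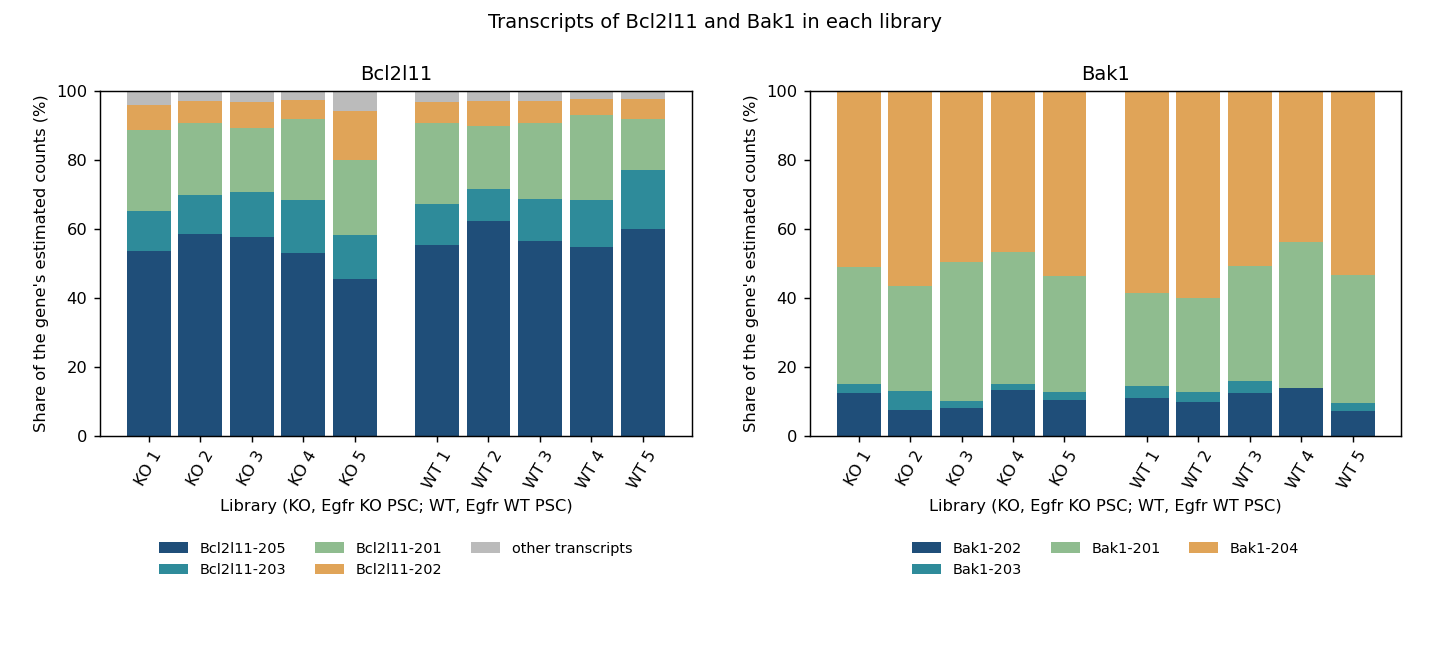
Share of the estimated counts of Bcl2l11 (left) and Bak1 (right) in each transcript, by library (%; stacked bars, Egfr KO PSC replicates 1 to 5 left of Egfr WT PSC replicates 1 to 5). Bcl2l11-205 leads among the Bcl2l11 forms in every library, and the NMD-annotated Bak1-201 and Bak1-204 hold at least 84.1% of the Bak1 counts.

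The rest of the pathway was examined through 4 lists. Of 14 other BCL2 family genes 11 were tested, with 0 called, 5 higher and 6 lower, and a median log2 fold change of -0.05. Bcl2a1a, Bcl2l10 and Hrk were below the filter. Bcl2l13, a mitophagy receptor, was at 108 ± 11.8 CPM with Egfr KO PSCs and 86.8 ± 11.7 CPM with Egfr WT PSCs, a fitted log2 difference of 0.32 (SE 0.12) with an edgeR adjusted p of 0.509. Bcl2l15 was at 0.904 ± 0.424 CPM with Egfr KO PSCs and 1.51 ± 0.524 CPM with Egfr WT PSCs, and Bnip3, a hypoxia-induced mitophagy gene, at 418 ± 144 CPM with Egfr KO PSCs and 352 ± 107 CPM with Egfr WT PSCs.

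Of 19 caspase and apoptosome genes, all tested, 0 were called, 12 were higher and 7 lower, with a median log2 fold change of 0.08. Birc3, an inhibitor of apoptosis, lay at 28.2 to 34.0 CPM with Egfr KO PSCs and 35.1 to 40.0 CPM with Egfr WT PSCs (log2 fold change -0.23, edgeR adjusted p = 0.554). It was the 1 gene of the 19 whose groups did not overlap, where 1.52% of all genes tested did not. Vdac1, a channel of the outer mitochondrial membrane, was at 233 ± 26.5 CPM with Egfr KO PSCs and 204 ± 32.4 CPM with Egfr WT PSCs.

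Of 10 death receptor genes, all tested, 0 were called, 4 were higher and 6 lower, with a median log2 fold change of -0.19. The adaptor gene Tradd was at 13.6 ± 2.58 CPM with Egfr KO PSCs and 18.0 ± 4.99 CPM with Egfr WT PSCs, the TNF receptor gene Tnfrsf1a at 88.0 ± 5.25 CPM with Egfr KO PSCs and 78.0 ± 10.8 CPM with Egfr WT PSCs, and Fas at 4.48 ± 2.04 CPM with Egfr KO PSCs and 6.15 ± 1.39 CPM with Egfr WT PSCs. Of 18 upstream regulators 16 were tested, with 0 called, 9 higher and 7 lower, and a median log2 fold change of 0.0030. Trp63 and Trp73 were below the filter. Myc, which sensitises cells to apoptosis, was at 501 ± 96.5 CPM with Egfr KO PSCs and 378 ± 42.3 CPM with Egfr WT PSCs (log2 fold change 0.40, edgeR adjusted p = 0.495). The p53 target Cdkn1a was at 189 ± 45.3 CPM with Egfr KO PSCs and 151 ± 24.2 CPM with Egfr WT PSCs, and Mapk3, which encodes ERK1, at 47.0 ± 3.11 CPM with Egfr KO PSCs and 51.7 ± 7.45 CPM with Egfr WT PSCs.

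The scores of erythroid, fibroblast and macrophage markers were lower with Egfr KO PSCs. The 5 erythroid markers summed to 0.905 to 3.55 CPM with Egfr KO PSCs and 6.50 to 42.4 CPM with Egfr WT PSCs, with Hba-a2 and Hbb-bt at 0 in at least 1 library (exact permutation p of their score 0.00794, unadjusted, two-sided, the smallest that 5 against 5 libraries can give). Of the 8 fibroblast markers 6 had lower fitted levels with Egfr KO PSCs, and their sum was 339.8 to 1223 CPM with Egfr KO PSCs and 364 to 917 CPM with Egfr WT PSCs. No fibroblast marker was at 0 in any library. Of the 9 macrophage markers tested, out of 10, 6 had lower fitted levels with Egfr KO PSCs, with C1qc at 0 in at least 1 library, and the sum of the 10 was 53.5 to 86.5 CPM with Egfr KO PSCs and 40.9 to 97.8 CPM with Egfr WT PSCs. The fibroblast score, the mean log2 CPM of its markers, was 3.78 ± 0.263 with Egfr KO PSCs and 4.29 ± 0.338 with Egfr WT PSCs (exact permutation p = 0.0397, unadjusted, two-sided). The macrophage score was 0.785 ± 0.405 with Egfr KO PSCs and 1.59 ± 0.608 with Egfr WT PSCs (exact permutation p = 0.0476, unadjusted, two-sided). The endothelial sum was 8.03 to 41.0 CPM with Egfr KO PSCs and 18.7 to 29.6 CPM with Egfr WT PSCs. All 6 endothelial markers had lower fitted levels with Egfr KO PSCs (exact permutation p of their score 0.143, unadjusted, two-sided). The epithelial sum was 10116 to 20773 CPM with Egfr KO PSCs and 12288 to 13618 CPM with Egfr WT PSCs, its highest value being that of Egfr KO PSC replicate 5 (exact permutation p of the epithelial score 0.548). The acinar sum was 52.0 to 241 CPM with Egfr KO PSCs and 52.0 to 169 CPM with Egfr WT PSCs (exact permutation p of the acinar score 0.603). None of these markers was called by edgeR.

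Log2 fold changes are given here without a covariate, then with the fibroblast score, then with the macrophage score as a covariate. For the survival genes they were -0.34, -0.43 and -0.34 (Bcl2), 0.23, 0.24 and 0.050 (Bcl2l1), and -0.32, -0.15 and -0.31 (Mcl1). For the effectors they were -0.03, 0.13 and 0.14 (Bax), and 0.19, 0.13 and 0.12 (Bak1). For Bid they were 0.09, -0.018 and 0.21, for Bbc3 -0.39, -0.47 and -0.19, and for Bcl2l11 0.22, 0.032 and 0.15. For Bik they were -0.61, -0.13 and -0.80, and for Bmf -0.45, -0.71 and -0.26. None of the 10 genes passed in either fit with a covariate, and 0 of all genes tested passed in either. The part of these cells in the levels of the 10 genes was not tested further.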

How the data were processed

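RNA from sorted epithelial cells was sequenced in 10 libraries made with a low-input kit, with more PCR cycles for smaller RNA inputs, per the labels' protocols. There are no molecular identifiers, so PCR duplicates cannot be told from separate molecules. The authors deposited 1 Salmon 1.9.0 file per library with estimated counts, TPM and effective lengths for 147828 transcripts, on GRCm39 per the submitters' processing notes; the annotation was not given in the sources used here. Transcript identifiers were matched to GENCODE M21 (GRCm38): 137063 had a gene, holding 98.1% to 98.7% of the counts, and 10765 were left out. Counts and TPM were summed by gene identifier and counts rounded. Where a listed gene symbol had more than 1 identifier, the one with the most counts was used. Genes passing edgeR's expression filter (minimum count 10) were normalised by TMM and tested with edgeR 4.0.16's quasi-likelihood test in R 4.3.3, Egfr KO PSC over Egfr WT PSC, without covariates, at a Benjamini-Hochberg adjusted p under 0.05. DESeq2 1.42.0 and limma 3.58.1 were alternatives. All 10 genes are named; of each other list, the genes past the threshold or, with none, the 3 of lowest p that average 1 CPM or more. Some items are not reported here. The genes and lists were chosen with earlier results of these data known. The code was tested on simulated data. Replicate numbers follow accession order. No pair of libraries agreed within sampling noise (chi-square over its degrees of freedom was at least 39.2 in 45 pairs).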

Additional observations from a re-analysis of the deposited data

Results flagged for a closer look

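One of the Egfr WT PSC libraries stood far below the other 4 for Bcl2l15, a low gene of the wider family, at 0.597 CPM, where the group mean was 1.51 ± 0.524 CPM (SD, n = 5). The gap to the nearest of the others was 0.792 of the group's range. Among the 44 combinations of gene and group examined in this way, chance alone marks about 1 in 20.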

How the results depend on the processing

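Over 190 alternative values for the 10 genes (19 for each), 0 passed the threshold, the lowest adjusted p was 0.267, and 184 kept their direction. The other 6 changed sign. Bax turned to 0.13 with the fibroblast score and 0.14 with the macrophage score as covariate, and ranged from -0.14 to 0.036 when 1 library was left out, above 0 without Egfr KO PSC replicate 4, Egfr KO PSC replicate 5 or Egfr WT PSC replicate 2. Bid turned to -0.018 with the fibroblast score. The cause was not tested. The calls over all genes, 0 by edgeR against 1426 at an unadjusted p under 0.05, were 1 without the expression filter, 127 with DESeq2, 3 with limma voom and 2 with limma on log2(TPM + 1). With 1 library left out they numbered 0 to 4, above 0 without Egfr KO PSC replicate 1 (4), Egfr KO PSC replicate 3 (1) or Egfr WT PSC replicate 5 (2). Calls among the 10 genes, their transcripts and the 4 lists stayed at 0 under every alternative run. The 2 of the 10 genes at an unadjusted p under 0.05 became 0 with the macrophage score and 1 with the fibroblast score as covariate. Over all genes these fits gave 572 and 1515. With 1 library left out the number was 1 to 4 of the 10, and 992 to 1983 over all genes. No paired analysis was possible because the labels give no replicate numbers that pair libraries. Bik and Bbc3, at 53 to 222 and 106 to 297 estimated counts, are the least precise of the 10.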
